A study of Mus musculus with 4 samples.

Results

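Cd209a, Clec10a and Mgl2 are 3 of the 32285 genes counted in single-cell RNA sequencing of CD11c+ MHC-II+ cells sorted from B16-F10 melanomas. They were taken by symbol as a group of C-type lectins of myeloid cells, and each matched a single entry of the files. Lower levels of Cd209a after virus injection were among the values that led to the choice, so the comparisons between libraries below are descriptions and carry no test. All mice were C57BL/6 and carried a B16-F10 tumor under the skin, a transplanted mouse melanoma line, into which an adenovirus was injected on day 12. The Ad-Null library received the empty virus, and Ad-MEM40 the virus labelled ISF35, which is known as a chimeric form of CD40 ligand. Ad-mIFNB received the virus for mouse interferon beta, and Ad-COMBO both ISF35 and mIFNB. Each library pooled the sorted cells of 3 similarly treated tumors, so there is 1 library per treatment, the spread between tumors is not known, and Ad-Null is the control throughout. Animal age and the time from injection to collection are not given in the sources used here.

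C-type lectins are surface receptors that bind sugars in a calcium-dependent way. Cd209a is a mouse relative of human DC-SIGN, a receptor for mannose and fucose, and is widely used to mark cDC2 and monocyte-derived dendritic cells. Clec10a (MGL1) and Mgl2 (MGL2, CD301b) are the mouse counterparts of human CD301, a receptor for galactose and N-acetylgalactosamine that is taken as a sign of cDC2 and of macrophages exposed to IL-4. Conventional type 2 dendritic cells, cDC2, present antigen to CD4+ T cells, and interferon beta and CD40 ligand are both known to mature dendritic cells.

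The 3 genes come from 2 places in the genome. Cd209a (ENSMUSG00000031494) lies on the minus strand of chr8:3743397-3748984 in GRCm38 and GENCODE M21, with 7 exons, beside the other Cd209 genes. Mgl2 (ENSMUSG00000040950, chr11:70130329-70137550) and Clec10a (ENSMUSG00000000318, chr11:70156197-70170834) lie head to tail on the plus strand of chromosome 11 with 18646 bases and 0 annotated genes between them. Both have 10 exons. Their coding parts aligned over 908 bases with 93.2% identity, while the transcript ends after the coding part had 73.9% identity over 257 aligned bases. The longest run shared by both transcripts is 183 coding bases of exons 7 to 9. Reads that lie wholly within that run could not be assigned to either gene by sequence alone. The last 20 bases of the run and the 60 that follow are shown for both, with capitals at the 4 bases that differ (Clec10a chr11:70170170-70170249, Mgl2 chr11:70136680-70136759, plus strand).
Clec10a: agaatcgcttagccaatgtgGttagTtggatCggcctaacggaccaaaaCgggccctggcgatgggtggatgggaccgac
Mgl2: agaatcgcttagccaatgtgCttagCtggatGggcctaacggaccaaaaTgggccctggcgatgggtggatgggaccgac
Stretches of 50 bases present in both transcripts made up 16.7% of those of Clec10a and 15.7% of those of Mgl2, but 0 of the 451 in the last 500 bases of either. Cd209a shared 0 stretches of 50 bases with the 6 other Cd209 genes, with Asgr1 and Asgr2, or with Clec10a and Mgl2. The strand and the part of the transcript that each UMI came from were not examined here, so a small exchange of UMIs between Clec10a and Mgl2 cannot be told from their true counts.

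Promoter sequence from RefSeq (GRCm38.p6) was found for 2 of the 3 genes, Cd209a and Mgl2, and is shown from 250 bases before the start of transcription to 10 bases past it, since Cd209a differed most between libraries. Capitals mark the matches to the motifs named after the sequences.
Cd209a, chr8:3748975-3749234, minus strand: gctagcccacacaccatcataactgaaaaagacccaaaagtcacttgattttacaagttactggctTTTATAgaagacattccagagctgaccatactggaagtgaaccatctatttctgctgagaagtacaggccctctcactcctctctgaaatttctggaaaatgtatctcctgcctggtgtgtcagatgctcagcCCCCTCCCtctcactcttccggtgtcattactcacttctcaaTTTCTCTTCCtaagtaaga
Mgl2, chr11:70130107-70130366, plus strand: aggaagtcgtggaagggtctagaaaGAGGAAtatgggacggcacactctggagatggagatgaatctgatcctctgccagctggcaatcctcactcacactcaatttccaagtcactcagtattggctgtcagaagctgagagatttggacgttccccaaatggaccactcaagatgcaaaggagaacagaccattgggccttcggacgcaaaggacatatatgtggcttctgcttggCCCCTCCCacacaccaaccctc
Of 10 motifs searched on both strands over 300 bases, Cd209a held 3 and Mgl2 held 2. Cd209a had the composite site of ETS and IRF factors, GGAA and GAAA with any 2 bases between them, read on the opposite strand and ending at the first transcribed base, a word found in 2.72% of 32851 mouse promoter windows of that length. It also had a CCNCNCCC (the core of KLF factors, in 49.5% of windows) and a TATAAA on the opposite strand (13.6%). Mgl2 had a CCNCNCCC and a GAGGAA (the core of PU.1 and its relatives, 28.3%). Neither window held the core of the interferon-stimulated response element (GAAA and GAAA with 2 bases between them, in 3.44%), of STAT6 (TTC and GAA with 4 bases between them, 6.95%) or of STAT5 (TTCNNNGAA, 8.30%). Both also lacked TGANTCA (AP-1, 7.81%), TTGCNNAA (C/EBP, 10.8%) and the core of NF-kB (GGG and TTCC with 3 bases between them, 5.56%). The composite shares GGAA with the PU.1 core and GAAA with the interferon element, and matches are letters in a window, not measured binding.

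The libraries differed in size. Barcodes with at least 500 genes and at most 10% mitochondrial UMIs, called cells here, numbered 8745 in Ad-Null, 15656 in Ad-MEM40, 1810 in Ad-mIFNB and 671 in Ad-COMBO, with 9748429 to 181854752 UMIs per library and medians of 9483 to 15277 UMIs per cell. Pairs of libraries shared 0 to 41 cell barcodes, at most 1.19% of the smaller library. The sort markers were present: H2-Ab1 had a UMI in 91.4% to 99.9% of cells and Itgax, the gene of CD11c, in 40.9% to 60.7%. Levels are given as CPM, UMIs of the gene per 1000000 UMIs of the cells summed. UMIs count molecules caught at 1 end, so levels are not divided by gene length and are compared between cells and libraries rather than between genes. Bracketed ranges are 95% intervals that cover counting error only, exact Poisson for CPM and Clopper-Pearson for shares of cells.

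Cd209a had 23807 UMIs in Ad-Null, 13368 in Ad-MEM40, 1641 in Ad-mIFNB and 139 in Ad-COMBO. Ad-Null cells held 148 CPM (146 to 149.9), Ad-MEM40 cells 73.5 (72.3 to 74.8), Ad-mIFNB cells 57.5 (54.7 to 60.3) and Ad-COMBO cells 14.3 (12.0 to 16.8), so neighbouring libraries in this order were clear of each other's counting error. Against Ad-Null, Cd209a was 2.01-fold (1.97 to 2.06), 2.57-fold (2.45 to 2.71) and 10.4-fold (8.79 to 12.4) lower in the same order. The mixture also lay 5.16-fold (4.36 to 6.14) below Ad-MEM40 and 4.03-fold (3.39 to 4.83) below Ad-mIFNB. Among genes of at least 50 CPM in either library, 2 of 3060 had a lower ratio than Cd209a in Ad-MEM40, 14 of 3111 in Ad-mIFNB and 2 of 3242 in Ad-COMBO. Below Clec10a there were 64, 69 and 16 genes in the same order, and below Mgl2 11, 242 and 20. Cd209a was chosen partly on these ratios, so its place among the genes is a description only.

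Clec10a differed less, at 167 CPM (165 to 169), 122 (120.2 to 123), 109 (105 to 113) and 58.1 (53.4 to 63.0) in Ad-Null and then Ad-MEM40, Ad-mIFNB and Ad-COMBO. These levels were 1.37-fold (1.35 to 1.40), 1.54-fold (1.48 to 1.60) and 2.88-fold (2.65 to 3.13) below Ad-Null. The libraries stood in the same order as for Cd209a.

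Mgl2 had another order. Ad-Null led with 224 CPM (221 to 226), followed by Ad-mIFNB with 174 (169 to 179), Ad-MEM40 with 133 (131 to 135) and Ad-COMBO with 84.3 (78.7 to 90.3). It was 1.29-fold (1.25 to 1.32) below Ad-Null in Ad-mIFNB, 1.68-fold (1.65 to 1.71) in Ad-MEM40 and 2.65-fold (2.47 to 2.85) in Ad-COMBO. With each cell counted once, in place of a sum that weights deep cells more, the log2 ratio of Mgl2 in Ad-mIFNB was -0.70 and not -0.35, beside -0.74 in Ad-MEM40 counted the same way (-0.73 in the sum), so the gap between these 2 libraries for Mgl2 was smaller when cells had equal weight. Measured with 5 CPM added to both sides, 2 of the 3 lectins were at least 1.5-fold lower in Ad-MEM40, where 0.34% of 16761 tested genes were, 2 in Ad-mIFNB (1.41% of 15627) and 3 in Ad-COMBO (3.22% of 15477). The 3 comparisons share the Ad-Null library, and the lectins were chosen on them.

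**Figure D1:**
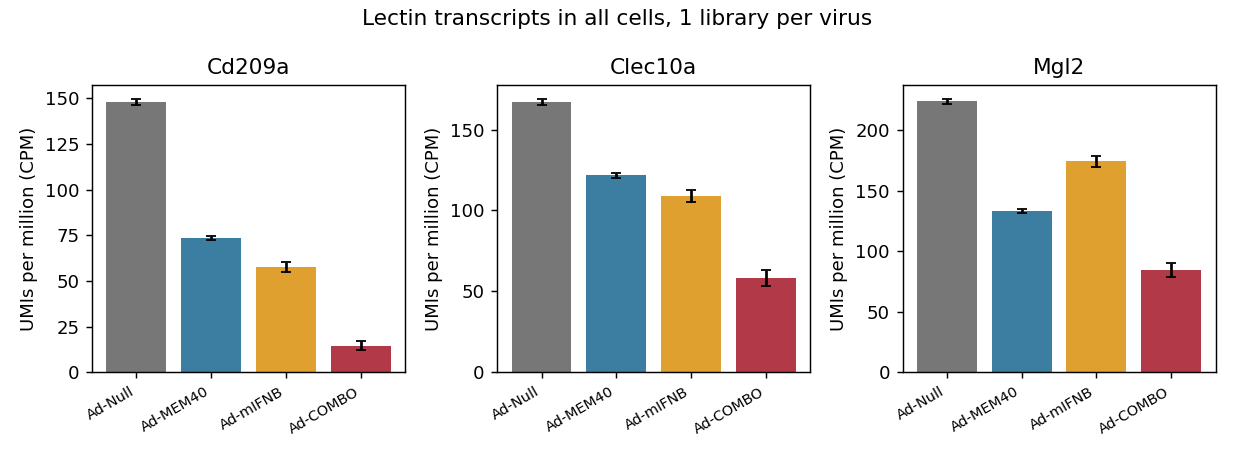
Level of Cd209a, Clec10a and Mgl2 in all cells of each library, in UMIs per 1000000 (CPM), with 95% Poisson intervals as error bars. Each bar is 1 library; Cd209a stands at 148 CPM in Ad-Null and at 14.3 in Ad-COMBO, and Mgl2 is the gene for which Ad-mIFNB stands above Ad-MEM40.

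Fewer cells had a UMI of each lectin in the virus libraries other than Ad-Null. In Ad-Null 31.0% of cells (30.1 to 32.0) had a Cd209a UMI, whereas in Ad-MEM40 17.5% did (16.9 to 18.1), in Ad-mIFNB 12.2% (10.7 to 13.8) and in Ad-COMBO 3.58% (2.30 to 5.28). Clec10a was found in 51.0%, 36.8%, 32.6% and 21.6% of cells in that order, and Mgl2 in 38.6%, 22.6%, 19.2% and 14.3%. After thinning each cell to 5000 UMIs, which leaves out shallower cells, Cd209a was found in 23.3%, 14.6%, 10.4% and 2.84%, the same order. Positive cells could still be rich in these transcripts. They held a mean of 8.77 Cd209a UMIs in Ad-Null, 4.88 in Ad-MEM40, 7.43 in Ad-mIFNB and 5.79 in Ad-COMBO. For Mgl2 the mean of 14.3 in Ad-mIFNB was above the 10.7 of Ad-Null, but the median positive cell held 4 UMIs in both. These counts are not scaled for depth, and the median UMIs per cell were 15277 in Ad-Null and 9483 in Ad-MEM40. The highest cell held 101 Cd209a UMIs in Ad-Null and 82 in Ad-mIFNB. For Mgl2 the highest cell had 232 UMIs in Ad-Null and 283 in Ad-mIFNB. In Ad-COMBO the 139 Cd209a UMIs lay in 24 cells, and the 7 cells richest in them (1% of the library) held 62.6%. The richest 1% of Ad-Null cells, 87 cells where 2714 were positive, held 17.5%. A fixed share of all cells takes in more of the positive ones where these are few, so the shares do not compare positive cells alike.

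Cells were assigned to 13 marker gates, each of 8 genes that include none of the 3 lectins. A cell entered the gate of which it had the most markers with a UMI, with at least 3 and no tie. The gates that held at least 50 cells in 1 library or more were cDC2, cDC1, mature DC, pDC, macrophage, monocyte and melanoma, with 12.4% to 20.4% of cells of a library ungated. The cDC2 gate rests on Flt3, Zbtb46, H2-DMb2, Klrd1, Tnip3, Ltb, Ffar2 and Clec4a4 and took in 2264 cells of Ad-Null (25.9%), 2264 of Ad-MEM40 (14.5%), 565 of Ad-mIFNB (31.2%) and 124 of Ad-COMBO (18.5%). The summed level of its 8 markers inside the gate was 1185 CPM in Ad-Null and in Ad-MEM40, 1229 in Ad-mIFNB and 1283 in Ad-COMBO. Single markers differed within that sum. From Ad-Null to Ad-COMBO, Tnip3 went from 225 to 82.9 CPM, Ltb from 66.4 to 181 and Ffar2 from 123 to 216, so the gate need not hold the same cells in each library. Of the Ad-Null cells in this gate 546 had exactly 3 markers, and 475 further cells had 2. The macrophage gate, built on C1q chains, Ms4a7, Trem2, Pf4, Stab1 and Apoe, took in 28.6%, 42.7%, 16.2% and 16.8% of cells, and the mature DC gate, with Ccr7 and Fscn1, 3.70%, 4.41%, 8.18% and 17.4%. These are shares of sorted cells, not cells per tumor.

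In Ad-Null, Cd209a was highest in the cDC2 gate, at 365 CPM (359 to 371). It was at 75.6 (73.2 to 78.0) in the macrophage gate, 65.5 (58.2 to 73.5) in the mature DC gate and 58.0 (50.6 to 66.3) in the pDC gate, and each of these overlapped with its neighbour. The monocyte gate had 27.1 (22.5 to 32.5), the cDC1 gate 19.6 (18.1 to 21.3) and the melanoma gate 12.3 (9.77 to 15.2). The cDC2 gate held 59.5% of all Cd209a UMIs of the library.

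Clec10a in Ad-Null followed another order of gates: 347 CPM (342 to 353) in cDC2, 198 (184 to 213) in pDC, 126 (123 to 129) in macrophage, 99.8 (90.7 to 109.5) in monocyte, 73.7 (65.9 to 82.2) in mature DC, 25.4 (23.6 to 27.3) in cDC1 and 12.7 (10.2 to 15.7) in melanoma. Each neighbour in that order was clear of the next by its counting interval. Plasmacytoid dendritic cells, the producers of type I interferon, had a Clec10a UMI in 71.7% of the cells of their gate and a Cd209a UMI in 11.3%.

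Mgl2 was highest in the monocyte gate of Ad-Null, at 447 CPM (428 to 467) over 189 cells, ahead of the cDC2 gate (326, 320 to 331) and the macrophage gate (250.3, 246 to 255). The mature DC gate had 121 (110.5 to 131), the pDC gate 98.5 (88.7 to 109), the cDC1 gate 41.0 (38.7 to 43.4) and the melanoma gate 37.9 (33.4 to 42.8), which overlaps with cDC1. The number of Mgl2 UMIs per Clec10a UMI ran from 0.50 in the pDC gate over 0.94 in cDC2 and 1.98 in macrophage to 4.48 in the monocyte gate.

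Low levels need care in droplet data, where free RNA and doublets give UMIs to cells that do not make them. The pDC, T or NK cell and melanoma gates had been planned as the measure of free RNA. In Ad-Null their Cd209a levels were 58.0, 0 (7 cells) and 12.3 CPM, so this measure depends on the gate. The cDC1 gate, which was not planned for this, served as a further comparison. In Ad-Null 11.1% of its cells had a Cd209a UMI, 18.3% a Clec10a UMI and 18.8% an Mgl2 UMI. Its median was 20434.5 UMIs per cell against 15534.5 in the cDC2 gate. In Ad-Null the pDC gate, with a median of 10104 UMIs, had Cd209a in 11.3% of cells and the mature DC gate, with a median of 11318, in 13.9%. Thinned to 5000 UMIs the share with Cd209a was 4.398% in the cDC1 gate, 6.23% in the pDC gate and 8.95% in the mature DC gate, and its levels were 19.6, 58.0 and 65.5 CPM. Scrublet called 25.2% of the macrophage gate of Ad-Null doublets, 20.0% of the pDC gate and 9.63% of the cDC2 gate. Their part in the levels of single gates other than cDC2 was not tested.

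**Figure D2:**
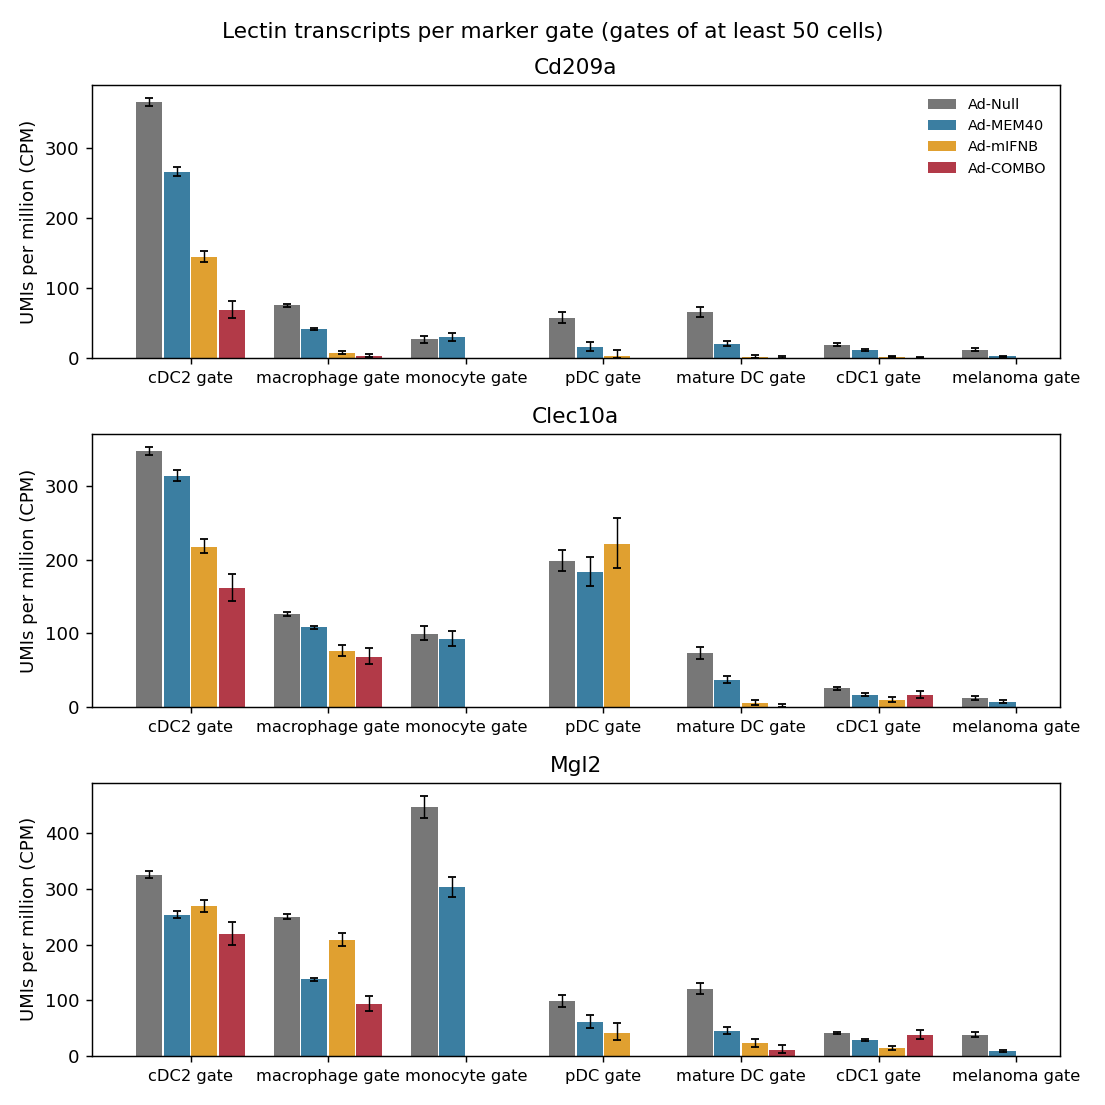
Level of each lectin in UMIs per 1000000 (CPM) by marker gate and library, with 95% Poisson intervals as error bars, for gates with at least 50 cells. Cd209a is concentrated in the cDC2 gate, Clec10a is also high in the pDC gate, and Mgl2 is highest in the monocyte gate; melanoma and monocyte gates have bars for Ad-Null and Ad-MEM40 only, and the pDC gate has none for Ad-COMBO.

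Within the cDC2 gate Cd209a was again lower after each virus. From 365 CPM in Ad-Null the values went to 266 (259 to 272) with Ad-MEM40, 145 (138 to 153) with Ad-mIFNB and 68.7 (57.4 to 81.5) with both. That is 1.37-fold (1.33 to 1.41), 2.52-fold (2.38 to 2.66) and 5.31-fold (4.47 to 6.36) below Ad-Null. The share of the gate's cells with a Cd209a UMI was 59.4%, 45.1%, 29.2% and 16.9%. The mixture lay 2.11-fold (1.76 to 2.55) below Ad-mIFNB and 3.87-fold (3.25 to 4.64) below Ad-MEM40 in this gate.

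Clec10a inside the gate was at 347 CPM in Ad-Null and, in the order used above, at 314 (307 to 321), 218 (209 to 228) and 162 (144 to 181) after the viruses. Mgl2 was at 326 in Ad-Null and at 254 (248 to 260.4), 269 (258 to 279) and 219 (199 to 241). The log2 ratios to Ad-Null were -0.14, -0.66 and -1.08 for Clec10a and -0.35, -0.27 and -0.56 for Mgl2, against -0.45, -1.30 and -2.33 for Cd209a. At 1.5-fold, 0 of the 3 lectins were lower in Ad-MEM40 in this gate, where 0.276% of 12667 tested genes were, and Cd209a and Clec10a in Ad-mIFNB (1.69% of 12328) and in Ad-COMBO (5.7% of 12122). Mgl2 had a UMI in 43.5%, 28.6%, 23.7% and 22.6% of the gate's cells, so its level in Ad-mIFNB and Ad-COMBO came from fewer cells than in Ad-Null.

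Markers of other cells moved inside this gate. Ly6c2, part of the Ly6C antigen of inflammatory monocytes and also a target of interferon, was at 72.8 CPM in Ad-Null, 108 in Ad-MEM40, 811 in Ad-mIFNB and 1005 in Ad-COMBO. Fcgr1, the gene of CD64, was at 132, 150.0, 347 and 351. Ccr2, a receptor of monocytes, was at 250.2, 269, 217 and 76.0. The 8 monocyte markers summed to 146, 144, 98.7 and 91.2 CPM, with Hp at 0 in Ad-mIFNB and F13a1, Chil3, Hp and Fn1 at 0 in Ad-COMBO. Both the monocyte sum and Ccr2 were thus lowest in Ad-COMBO. The macrophage markers summed to 190.3, 312, 180 and 17.3 CPM, with Trem2 and Stab1 at 0 in Ad-COMBO. The mature DC markers summed to 218, 231, 256 and 404 CPM, with Apol7c at 0 in both interferon beta libraries and Nudt17 and Slco5a1 also in Ad-COMBO. Their part in the lectin levels was not tested.

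The gate was therefore also described by Ly6c2, a split chosen after the data were seen. Among cDC2-gate cells without a Ly6c2 UMI, Cd209a was at 411 CPM (403 to 419) in Ad-Null, and at 336 (327 to 345), 216 (199 to 234) and 120.0 (99.4 to 144) in Ad-MEM40, Ad-mIFNB and Ad-COMBO. Among those with a Ly6c2 UMI it was at 285 (276 to 294), 144 (136 to 152), 116 (108 to 124) and 13.1 (6.77 to 22.9). Cd209a was thus lower in the cells with Ly6c2 in each library, and the order of the libraries was the same on both sides. Mgl2 without a Ly6c2 UMI was at 375 CPM (368 to 383), 305 (297 to 314), 436 (412 to 462) and 323 (288 to 360.1), and Ad-mIFNB stood above Ad-Null. The share of these cells with an Mgl2 UMI did not follow that order, at 44.5% (42.0 to 47.0) in Ad-Null and 33.5% (26.7 to 40.9) in Ad-mIFNB, where 60 of 179 cells were positive. A single cell of the whole Ad-mIFNB gate held 283 Mgl2 UMIs. Cells with a Ly6c2 UMI were 32.9% of the gate in Ad-Null, 32.8% in Ad-MEM40, 68.3% in Ad-mIFNB and 46.0% in Ad-COMBO.

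A score of type I interferon response genes gave a further division. Within each library the cDC2 gate was divided at its median score, the summed UMIs of Ifit1, Ifit2, Ifit3, Isg15, Rsad2, Oasl1, Usp18 and Cmpk2 per 10000 UMIs, all of them genes that type I interferon is known to raise. Cd209a was lower in the cells above the median of 3 libraries, with log2 differences of -0.34 in Ad-Null, -0.66 in Ad-MEM40 and -0.82 in Ad-mIFNB. For Clec10a these were -0.11, -0.49 and -0.64, and for Mgl2 -0.48, -0.96 and -1.06. In Ad-COMBO, with 62 cells on each side, the intervals of both sides overlapped for all 3 genes (Cd209a 78.3, 61.7 to 98.0, above the median and 58.7, 44.2 to 76.5, below it). The median score of the cells below the median of Ad-mIFNB, 33.6, was itself above that of the upper cells of Ad-Null, 14.6, and those cells had 185 CPM of Cd209a against 322.

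**Figure D3:**
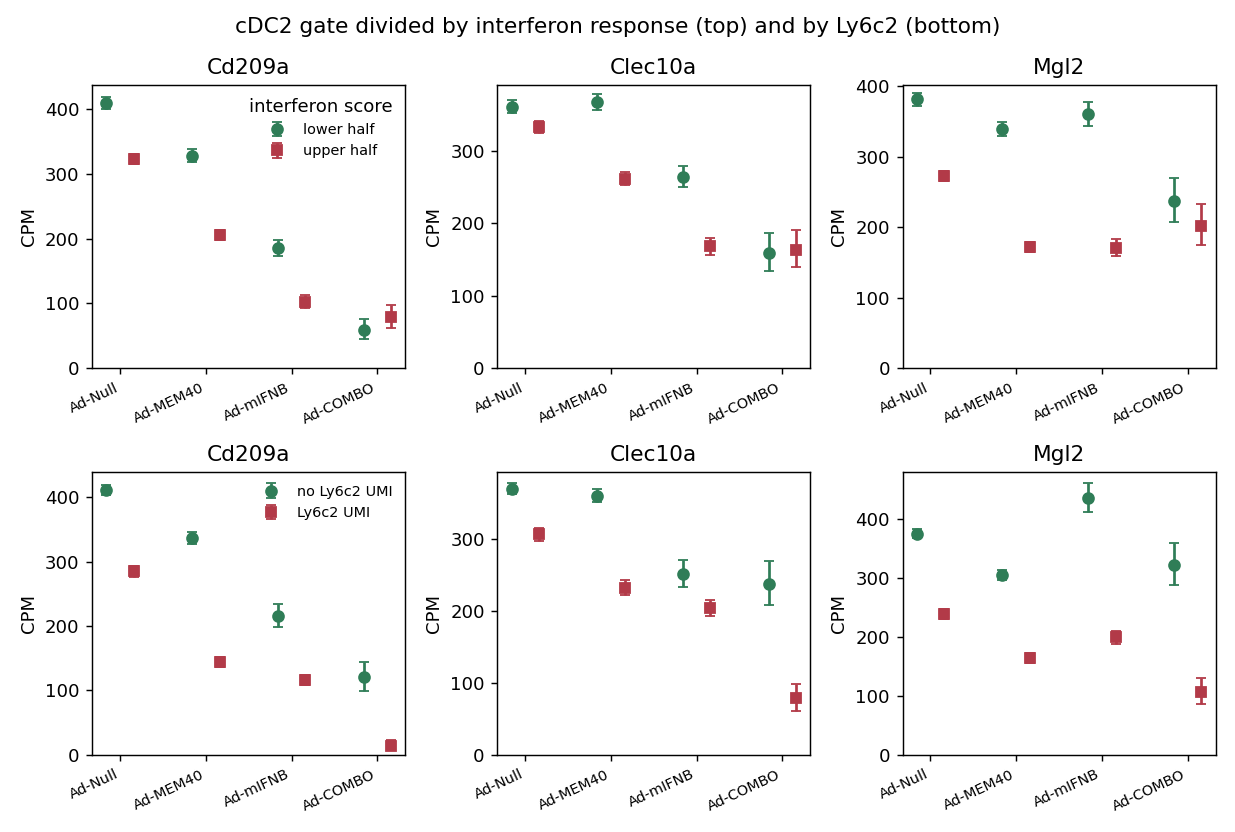
Level in CPM of each lectin in cDC2-gate cells below and above their library's median interferon score (top) and without and with a Ly6c2 UMI (bottom), by library, with 95% Poisson intervals. Cd209a is lower in Ad-mIFNB and Ad-COMBO than in Ad-Null on both sides of each division; with the Ly6c2 division Mgl2 stays at 436 CPM in Ad-mIFNB cells without Ly6c2.

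The 3 genes also differed from each other in the macrophage gate. Its Cd209a level of 75.6 CPM in Ad-Null compared with 41.2 (39.8 to 42.6) in Ad-MEM40, 7.99 (5.91 to 10.6) after interferon beta and 3.09 (1.24 to 6.36) after both, where 7 UMIs were found in 113 cells. Other values moved with it. The 8 cDC2 markers in the macrophage gate summed to 348 CPM in Ad-Null, 318 with Ad-MEM40, 231 with Ad-mIFNB and 167 with both, where Clec4a4 was at 0. Cd209a in the cDC1 gate was at 19.6, 11.6, 2.25 and 0 CPM. Called doublets were 25.2%, 20.97%, 0% and 0% of the macrophage gate. These calls cannot be compared between libraries. Only 3 cells were called in all of Ad-mIFNB and 3 in all of Ad-COMBO, and in Ad-MEM40 the expected share was taken. The part of cDC2 markers, doublets and free RNA in the Cd209a level was not tested. Clec10a was at 126, 108 (106 to 111), 76.8 (70.0 to 84.1) and 68.3 (58.0 to 80.0). Mgl2 was at 250.3, 137 (135 to 140.0), 208 (197 to 220.2) and 93.5 (81.3 to 107), so that here too Ad-mIFNB stood above Ad-MEM40. Cd209a and Mgl2 were at least 1.5-fold lower in Ad-MEM40 (0.275% of genes tested in this gate), Cd209a and Clec10a in Ad-mIFNB (1.67%), and all 3 in Ad-COMBO (4.79%).

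Clec10a in the pDC gate was at 198 CPM in Ad-Null, 184 (165 to 204) with Ad-MEM40 and 221 (189 to 256) with Ad-mIFNB, with overlapping intervals, and at 129 (91.1 to 178) in the 25 cells of Ad-COMBO. Ad-Null lay at 1.08 times (0.95 to 1.23) the Clec10a level of Ad-MEM40 and at 0.90 times (0.76 to 1.06) that of Ad-mIFNB. Cd209a and Mgl2 were at least 1.5-fold lower in both Ad-MEM40 (2.41% of genes tested) and Ad-mIFNB (9.49%), but Cd209a had only 29 and 3 UMIs there. In these cells the macrophage markers summed to 802 CPM in Ad-Null, 1237 with Ad-MEM40 and 172 with Ad-mIFNB, and the cDC2 markers to 380.4, 348 and 291. Clec4a4 was at 0 in both virus libraries, and Ms4a7 and Pf4 with Ad-mIFNB. Their part in the lectin levels was not tested.

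In the mature DC gate, the Ccr7+ state that migrates to lymph nodes, all 3 transcripts were scarce after the viruses. Clec10a was at 73.7 CPM in Ad-Null, 37.3 (32.2 to 42.9) with Ad-MEM40 and 5.15 (2.22 to 10.2) with Ad-mIFNB, and 1 UMI was found in the 117 cells of Ad-COMBO. Cd209a was at 20.8 (17.0 to 25.1) in Ad-MEM40, had 2 UMIs in Ad-mIFNB and 0 in Ad-COMBO, which at a limit of 3 UMIs is at least 25.7-fold below Ad-Null. Mgl2 was at 121, 45.2 (39.6 to 51.4), 22.5 (15.7 to 31.3) and 11.03 (5.87 to 18.9). All 3 were at least 1.5-fold lower in each virus library of this gate, where 1.2% of genes tested were in Ad-MEM40, 6.98% in Ad-mIFNB and 15.1% in Ad-COMBO. Markers of other gates moved in these cells too, from Ad-Null to Ad-COMBO in the order above. The 8 macrophage markers summed to 681, 708, 218 and 67.0 CPM, with Stab1 at 0 in both interferon beta libraries. The monocyte markers summed to 131, 92.0, 12.9 and 4.24 CPM, with 5 of 8 detected in Ad-mIFNB and 2 in Ad-COMBO, and the cDC2 markers to 650.1, 587, 520.4 and 474. Their part in the lectin levels was not tested. The monocyte gate could be compared only in Ad-MEM40, where Mgl2 was at 303 CPM (285 to 322) over 273 cells, 1.48-fold (1.37 to 1.59) below Ad-Null, while Clec10a and Cd209a overlapped with Ad-Null in their intervals. None of the 3 was at least 1.5-fold lower there (1.94% of genes tested).

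Among the gates compared, the change in makeup was set aside by giving each gate its Ad-Null share of UMIs. Tied and ungated cells were left out, so makeup was set aside for the gated cells only. From Ad-Null to Ad-COMBO in the order above, Cd209a was at 300, 155, 57.6 and 1.79 CPM in ungated cells. In tied cells it was at 151, 82.1, 37.3 and 0 CPM. Cd209a was then 1.47-fold lower in Ad-MEM40 over 7 gates, 3.06-fold in Ad-mIFNB over 5 and 6.51-fold in Ad-COMBO over 4. Clec10a was 1.14-fold, 1.59-fold and 2.08-fold lower, and Mgl2 1.502-fold, 1.27-fold and 1.86-fold. For Ad-MEM40, in which the macrophage gate was larger and the cDC2 gate smaller, the Cd209a log2 ratio was -0.54 in place of -0.96. The share of Cd209a UMIs that came from the cDC2 gate was 59.5% in Ad-Null, 47.4% in Ad-MEM40, 83.1% in Ad-mIFNB and 94.2% in Ad-COMBO.

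Co-detection was read per cell. All 3 lectins had a UMI in 13.6% (12.8 to 14.3) of Ad-Null cells, 1185 in number. The triple-positive cells of Ad-MEM40 numbered 868 (5.54%, 5.19 to 5.91), those of Ad-mIFNB 72 (3.98%, 3.13 to 4.98) and those of Ad-COMBO 6 (0.89%, 0.33 to 1.94). At least 1 of them was present in 67.4%, 49.0%, 42.5% and 28.9% of cells. All 6 triple-positive cells of Ad-COMBO were in the cDC2 gate, where they were 4.84% (1.80 to 10.2) of 124 cells, against 25.4% in Ad-Null, 14.7% with Ad-MEM40 and 9.73% with Ad-mIFNB. Thinned to 5000 UMIs, triple-positive cells were 12.5%, 8.405%, 4.54% and 1.79% of the gate, and cells with none of the 3 were 22.6%, 32.3%, 48.2% and 61.6%.

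Co-detection differed between the pairs. In thinned cDC2-gate cells of Ad-Null, 70.7% (67.8 to 73.4) of cells with Cd209a also had Clec10a, against 43.5% of cells without it. For Cd209a and Mgl2 the shares were 35.4% (32.5 to 38.4) and 29.1%. Clec10a accompanied Cd209a in 68.3% of such cells in Ad-MEM40 and 66.4% in Ad-mIFNB, against 38.3% and 30% without Cd209a. In Ad-COMBO it was 6 of 14 cells, too few to place. The correlation over all cells of Ad-Null was 0.48 for Cd209a and Clec10a, 0.16 for Cd209a and Mgl2 and 0.23 for Clec10a and Mgl2. The cells of a library differ in depth, which affects the detection of both genes of a pair. Within the cDC2 gate the same 3 pairs had 0.42, 0.10 and 0.15 in Ad-Null but 0.34, 0.41 and 0.23 in the 124 cells of Ad-COMBO, so the order of the pairs was not the same in every library.

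**Figure D4:**
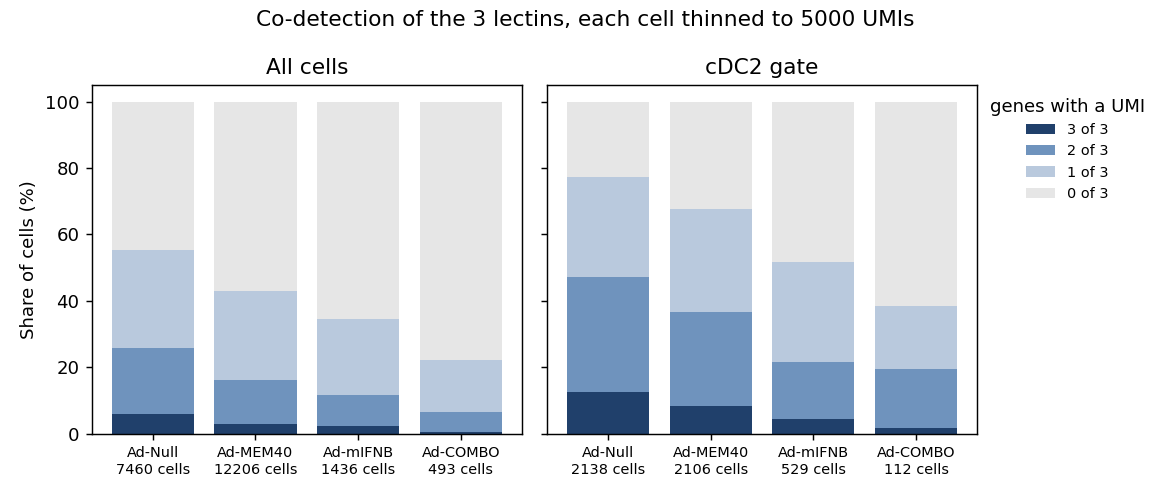
Share of cells (%) with a UMI of 0, 1, 2 or 3 of the lectins after each cell was thinned to 5000 UMIs, in all cells (left) and the cDC2 gate (right), by library. The dark part, cells with all 3, is 12.5% of the cDC2 gate in Ad-Null and 1.79% in Ad-COMBO, and the light part, cells with none, is 22.6% and 61.6%.

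Genes with the most similar pattern were sought over 23 sums of gate and library with at least 50 cells, among 5154 genes of at least 50 CPM in 1 of them, by Pearson correlation of log2 levels. For Cd209a these were Krt80 (0.83), Ctnnd2 (0.83), Ifitm1 (0.83), Zfp106 (0.80) and Ffar2 (0.79), of which Ffar2 is a marker of the cDC2 gate. Clec10a was closest to Ddi2 (0.90), Elmsan1, Ssh2, Lmo2 and Ctnnd2. Mgl2 was closest to Ank (0.93), Emilin2, Ccr1, Galnt6 and Itgam, and 4 of these 5 were highest in the monocyte gate of Ad-Null. The lectins correlated with each other at 0.77 to 0.81. The sums share libraries and sets of marker genes, so these values only describe likeness.

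The other C-type lectins did not move as a block. Of 37 on the list, 33 were measured over all cells in Ad-MEM40 and 32 in the interferon beta libraries. After Ad-MEM40, 4 were higher by 1.5-fold or more (0.776% of all genes tested) and 0 lower (0.34%), with a median log2 ratio of 0.07 (0.02 over all genes tested). They included Clec4d (22.0 to 59.3 CPM) and Clec4e (30.4 to 72.4), receptors for microbial glycolipids. After Ad-mIFNB 4 were higher (2.65% of all genes) and 5 lower (1.41%), with a median of -0.06 (-0.02 over all genes). After Ad-COMBO 7 were higher (5.98%) and 5 lower (3.22%), with a median of -0.09 (-0.01). Mrc1, the mannose receptor, went from 202 CPM in Ad-Null to 78.4 in Ad-mIFNB and 109 in Ad-COMBO, while Clec2d (52.2 to 134 and 208) and Cd69 (106 to 256 and 279) were higher.

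Closer relatives of Cd209a were scarce. Cd209d had 910 UMIs in Ad-Null (5.66 CPM), 868 in Ad-MEM40 (4.77), 17 in Ad-mIFNB (0.60) and 2 in Ad-COMBO (0.21), so it too was low with interferon beta, whereas Cd209f stood at 1.58, 3.35, 1.30 and 0.51 CPM. Inside the cDC2 gate 26 lectins were measured: 2 were higher and 0 lower in Ad-MEM40, 4 and 6 in Ad-mIFNB and 5 and 9 in Ad-COMBO (of all genes tested in the gate 0.205%, 3.31% and 6.84% were higher and 0.276%, 1.69% and 5.7% lower), with medians of 0.02, -0.23 and -0.26. Cd209d in the gate went from 11.9 CPM to 1.28 in Ad-mIFNB and 0 UMIs in Ad-COMBO, and Clec4b1 from 61.8 to 16.3 in Ad-COMBO. Of the lectins in that gate, Cd209a had the lowest log2 ratio in Ad-MEM40 and in Ad-COMBO, and Mrc1 (-1.70) and Cd209d (-1.43) were below it in Ad-mIFNB. The 5 CPM added to both sides limit how low the ratio of a scarce gene can go. Cd209d, with 0 UMIs in Ad-COMBO, could not go below -1.76 there, so this order does not rank it against Cd209a.

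**Figure D5:**
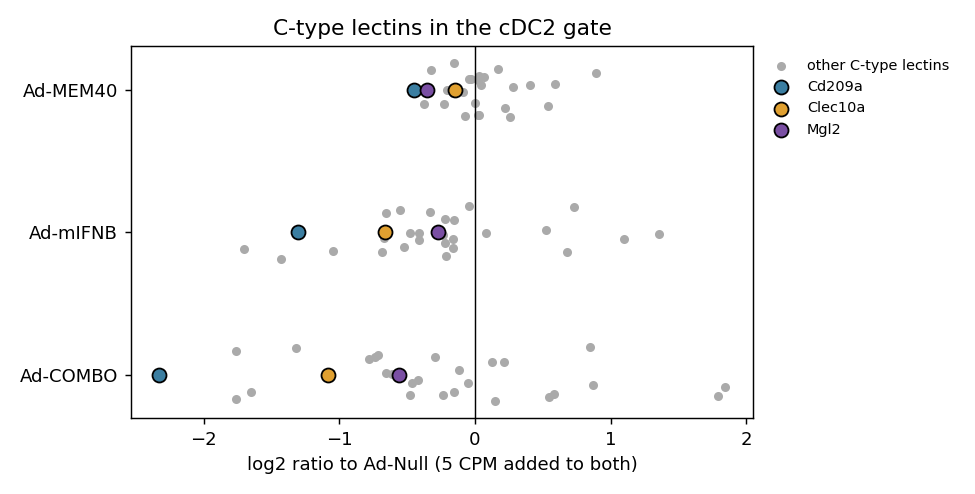
Log2 ratio of each virus library to Ad-Null, with 5 CPM added to both sides, for Cd209a, Clec10a, Mgl2 and 26 other C-type lectins in the cDC2 gate. Each point is a gene; Cd209a lies at -0.45, -1.30 and -2.33 in Ad-MEM40, Ad-mIFNB and Ad-COMBO, and other lectins lie on both sides of 0.

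Other genes of cDC2 moved in both directions. Of 20 on the list, which includes the gate's markers, 0 were higher and 2 lower in Ad-MEM40 over all cells, 3 and 1 in Ad-mIFNB and 3 and 5 in Ad-COMBO. The shares of all genes tested that were higher and lower were 0.776% and 0.34% for Ad-MEM40, 2.65% and 1.41% for Ad-mIFNB, and 5.98% and 3.22% for Ad-COMBO. Inside the gate Ltb, a lymphotoxin chain, was higher (66.4 CPM in Ad-Null, 153 in Ad-mIFNB, 181 in Ad-COMBO), as was Napsa (1034 to 1622 and 1612), and Tnip3 (225 to 111 and 82.9) and Cd24a (104 to 64.6 and 54.0) were lower. Ltb and Tnip3 are themselves markers by which cells entered the gate. Of 20 genes for IL-4 and GM-CSF receptors and transcription factors, 0 were lower over all cells in any of the 3 comparisons. Irf4, a factor of cDC2, was at 35.3 CPM in the gate of Ad-Null, 30.9 in Ad-MEM40, 35.9 in Ad-mIFNB and 43.0 in Ad-COMBO. Relb went from 73.6 to 94.0 in Ad-mIFNB and 116 in Ad-COMBO.

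Alternative activation genes, of which Mgl2 and Clec10a are often counted, gave 2 higher and 2 lower of 17 in Ad-MEM40, 0 and 3 in Ad-mIFNB and 3 and 6 in Ad-COMBO over all cells. Of all genes 0.776%, 2.65% and 5.98% were higher and 0.34%, 1.41% and 3.22% lower in these comparisons. Retnla went from 206 CPM to 13.6 and 0.92 in the interferon beta libraries, while the chemokine Ccl22 was at 61.1 in Ad-Null and 187 in Ad-COMBO. Of 18 type I interferon response genes, 0 passed 1.5-fold upward with Ad-MEM40 (0.776% of all genes), 18 with Ad-mIFNB (2.65%) and 18 with Ad-COMBO (5.98%).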

How the data were processed

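The authors deposited UMI counts in 1 matrix per library, with genes as rows and barcodes as columns. Per the submitters' processing notes, Cell Ranger 3.0, Seurat 4.0 and mm10 were used, while the matrix headers name version 6.0.0. Barcodes with at least 500 genes and at most 10% mitochondrial UMIs were kept, doublets included. UMIs were summed over cells or gates and scaled to 1000000 (CPM). A pseudocount of 5 CPM entered each log2 ratio, and genes with at least 20 UMIs over both libraries counted as higher or lower at 1.5-fold. At 0 UMIs a limit of 3 was used. Intervals are at 95%. With 1 library per treatment no test between treatments was made. The lectins, gates and gene lists were chosen with earlier results of these data known. Named genes are the lectins, the 5 genes most like each, the 3 highest and 3 lowest of each list, and gate markers; Ly6c2, Fcgr1, Ccr2, the Cd209 relatives and values of named genes in other libraries were added after the data were seen. Of 37 lectins and 20 interferon response genes, 36 and 18 were analysed here. On simulated libraries of 15464 to 16755 genes, drawn with counting error only, intervals held the true fold in 95.0% to 95.3% of genes. The simulation had no spread between cells or tumors, so it checks the calculation and not the width of the intervals for these data. Scrublet, as in scanpy 1.11.5, was run for an alternative. It marked 1459 Ad-Null cells but only 3 in each of the small libraries, and in Ad-MEM40 the 2278 cells of highest score, the expected share, were taken. Analyses used Python 3.11.15 with numpy 2.4.6 and scipy 1.17.1.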

Additional observations from a re-analysis of the deposited data

How the results depend on the processing

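No paired analysis was possible because each treatment had 1 library. The log2 ratios to Ad-Null of the 3 lectins over all cells and of Cd209a in the cDC2 gate were below 0 under each alternative run. With each cell counted once, Cd209a over all cells was at -1.58 in Ad-mIFNB and -1.43 in its cDC2 gate, Clec10a at -0.47, -0.78 and -1.67 in Ad-MEM40, Ad-mIFNB and Ad-COMBO, and Mgl2 at -0.70 in Ad-mIFNB and -1.69 in Ad-COMBO. Thinned to 1000 UMIs, where Ad-COMBO kept 5 Cd209a UMIs, Cd209a was at -0.88 in Ad-MEM40 and -3.73 in Ad-COMBO, and at -1.13 and -3.70 in the cDC2 gate of Ad-mIFNB and Ad-COMBO. Clec10a was at -0.91 and -1.71 and Mgl2 at -0.64 and -1.61 in these 2 libraries. Gates weighted as in Ad-Null gave -0.54, -1.53 and -2.49 for Cd209a in Ad-MEM40, Ad-mIFNB and Ad-COMBO, -0.18 and -1.01 for Clec10a and -0.57 and -0.87 for Mgl2 in Ad-MEM40 and Ad-COMBO. Without cells with a Ly6c2 UMI, Cd209a in the cDC2 gate was at -0.29, -0.91 and -1.73. Without doublets it was at -1.40 in the gate of Ad-mIFNB, with a gate of at least 2 markers at -1.38, and Mgl2 over all cells of Ad-MEM40 was at -0.77. With 1 CPM added, Cd209a was at -1.0001 in Ad-MEM40 and -3.29 in Ad-COMBO. The cause of these shifts was not tested.

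Thinned to 5000 UMIs, cells with all 3 lectins were 6.05%, 3.04% and 2.23% of Ad-Null, Ad-MEM40 and Ad-mIFNB, and thinned to 1000 UMIs 0.73%, 0.34%, 0.28% and 0% with Ad-COMBO last. They were 15.9% and 6.54% of Ad-Null and Ad-MEM40 with at least 1000 genes and at most 5% mitochondrial UMIs, and 10.6% and 4.40% without doublets. Genes at least 1.5-fold lower numbered 57, 221 and 498 in Ad-MEM40, Ad-mIFNB and Ad-COMBO, and 130, 414 and 925 were higher. With 1 CPM added these were 120, 589 and 1148 lower and 431, 691 and 1667 higher, and among genes of at least 50 CPM 30, 76 and 203 lower and 61, 237 and 433 higher. Thinning to 5000 UMIs, equal weight of cells and the Ly6c2 division were chosen after seeing the data. Ad-COMBO, with 671 cells, limits the precision of each value in it.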
